A study of Mus musculus with 12 samples.

Results

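Expression of 10 genes of the BCL2 family was followed in mouse CD4+ T cells with different doses of the transcription factor gene Eomes. The genes were taken by symbol from a count matrix of 43626 genes: the survival genes Bcl2, Bcl2l1 (BCL-XL), Mcl1, Bcl2a1b and Bcl2a1d (both A1), the effector genes Bax and Bak1, and the BH3-only genes Bcl2l11 (BIM), Bbc3 (PUMA) and Pmaip1 (NOXA). All 10 passed the filter on low counts. The 12 libraries came from naive CD45RBhi CD25- CD4+ T cells of Eomes flox/GFP donors that were transferred into adult male Rag2-/- mice, which lack T and B cells, and sorted again as GFP-positive or GFP-negative CD4+ cells from the spleen after 3 weeks. Donors without cre are called Het, and donors with Lck-cre, which deletes floxed alleles in the T cell lineage from the thymus on, are called KO. Donors of both genotypes carried 1 GFP allele of Eomes, so that no group had both alleles intact. Each genotype gave 3 GFP-positive and 3 GFP-negative libraries, which makes 4 groups of 3. Within a genotype, libraries with the same replicate number came from 1 of 6 recipients, so the 2 sorts are paired. The labels do not say how many donors were used.

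BCL2 family proteins decide at the outer mitochondrial membrane whether a cell commits to apoptosis. BAX and BAK form pores that release cytochrome c, BCL2, BCL-XL, MCL1 and A1 hold them in check, and BH3-only proteins such as BIM, PUMA and NOXA are induced by cytokine loss or stress and occupy the survival proteins. In T cells BCL2 is maintained by interleukin-7 and interleukin-15 signalling, and the balance of BCL2 and BIM limits the survival of resting and memory cells.

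Depth, the targeted gene and other cell types were read first. Total counts per library ran from 2116894 (KO GFP-positive replicate 2) to 18167236, and every GFP-positive library was shallower than every GFP-negative one. Fewer cells were sorted for the GFP-positive libraries (18000 to 117000) than for the GFP-negative ones (645000 to 2100000). Cell number thus went with GFP in every recipient, and its part in the results below was not tested. Eomes stood at 89.8 to 123 CPM (counts scaled to 1000000 per library, with TMM factors) in Het GFP-positive, 31.6 to 46.6 CPM in KO GFP-positive and 1.95 to 9.19 CPM in GFP-negative libraries. Counts of the whole gene say nothing about the floxed part alone. All 8 CD4+ T cell markers were detected in every library, and their summed level was lower in the GFP-positive library of 6 of 6 recipients (1738 to 2274 CPM against 2268 to 2911 CPM). The summed level of 15 myeloid markers was higher in the GFP-positive library of 6 of 6 recipients. In Het it ran from 273 to 2174 CPM in GFP-negative and from 754 to 5495 CPM in GFP-positive libraries, and in KO from 53.0 to 883 CPM and from 432 to 2113 CPM. The 8 erythroid markers were also higher in 6 of 6 (5.38 to 97.0 CPM against 36.1 to 296 CPM). B cell markers summed to at most 20.7 CPM, with Cd79a, Ms4a1, Pax5 and Blk at 0 in some libraries. NK cell markers without Eomes summed to 14.1 to 89.7 CPM, with Ncr1, Klra8 and Klre1 at 0 in some libraries, and the CD8 markers to at most 4.57 CPM, with Cd8b1 at 0 in some. The part of these cells in the results below was not tested, and in bulk samples fewer cells of a type and less RNA per cell cannot be told apart.

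RefSeq promoter windows (build GRCm38.p6, 250 bases before to 50 bases after a start site, 5′ to 3′ on the gene's strand) were searched on both strands for the T-box core TCACACC that EOMES-type factors bind, the FOXO core GTAAACA and the STAT5 pattern TTCNNNGAA. The 14 windows searched belonged to 9 of the 10 genes. The Bcl2 window is shown because Bcl2 carried the genotype difference. None of the patterns was in it, so it is in lower case.
Bcl2, chr1:106714241-106714540, minus strand: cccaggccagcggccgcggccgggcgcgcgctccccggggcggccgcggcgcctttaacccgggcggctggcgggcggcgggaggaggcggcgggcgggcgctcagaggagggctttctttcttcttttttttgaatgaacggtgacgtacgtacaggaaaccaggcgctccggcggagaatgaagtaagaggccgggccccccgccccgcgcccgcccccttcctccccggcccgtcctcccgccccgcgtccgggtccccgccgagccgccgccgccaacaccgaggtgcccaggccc
The Bcl2l1 window at the annotated 5′ end of the gene held no T-box core. Another Bcl2l1 window, at a start site inside the gene, held the core, which was the only T-box match in the 14 windows. The match, on the other strand, is in capitals and begins at position -140 from the start site.
Bcl2l1, chr2:152828440-152828739, minus strand: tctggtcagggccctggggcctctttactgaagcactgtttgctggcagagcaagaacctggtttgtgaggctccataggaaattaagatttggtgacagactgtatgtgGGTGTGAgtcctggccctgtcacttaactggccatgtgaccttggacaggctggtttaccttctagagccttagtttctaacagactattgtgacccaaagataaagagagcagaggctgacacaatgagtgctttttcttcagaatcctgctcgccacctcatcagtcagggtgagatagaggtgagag
The same 7 letters were in 3.98% of all 32851 promoter windows of this length. The FOXO core was found in a window of Bcl2l11, beginning at position -227 from the start site, and in a window of Bbc3, at position -167. Both genes are known FOXO3 targets in lymphocytes, and the matches are in capitals.
Bcl2l11, chr2:128125788-128126087, plus strand: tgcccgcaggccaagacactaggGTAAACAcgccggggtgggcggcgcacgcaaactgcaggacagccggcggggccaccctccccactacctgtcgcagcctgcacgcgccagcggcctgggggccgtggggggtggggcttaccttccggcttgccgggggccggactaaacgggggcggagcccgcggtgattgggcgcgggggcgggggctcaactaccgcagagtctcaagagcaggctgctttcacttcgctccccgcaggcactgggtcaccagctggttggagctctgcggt
Bbc3, chr7:16310011-16310310, plus strand: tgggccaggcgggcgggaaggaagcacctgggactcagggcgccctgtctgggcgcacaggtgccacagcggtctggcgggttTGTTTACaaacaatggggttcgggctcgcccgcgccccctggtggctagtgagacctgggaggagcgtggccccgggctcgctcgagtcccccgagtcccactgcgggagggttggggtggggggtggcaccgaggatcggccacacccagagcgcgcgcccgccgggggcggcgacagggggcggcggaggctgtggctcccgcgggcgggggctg
The FOXO core was in 3.65% of all promoter windows. The STAT5 pattern was in 0 of the 14 windows and in 8.30% of all windows. A match describes letters in a window, and a window without one says nothing about binding of the factor.

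The windows of Bcl2a1b and Bcl2a1d are shown because the 2 genes are nearly identical copies. Over 250 aligned bases 247 were the same, and the 3 aligned bases that differ are in capitals. Bcl2a1b also holds a short insertion, aggaag, which the count of aligned bases leaves out and which is not marked.
Bcl2a1b, chr9:89199023-89199322, plus strand: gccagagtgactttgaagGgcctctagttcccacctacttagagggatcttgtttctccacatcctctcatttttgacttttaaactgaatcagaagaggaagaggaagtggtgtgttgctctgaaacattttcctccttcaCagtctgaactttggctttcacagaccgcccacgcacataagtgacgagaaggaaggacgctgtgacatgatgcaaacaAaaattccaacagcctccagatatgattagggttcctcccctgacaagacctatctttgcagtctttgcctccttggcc
Bcl2a1d, chr9:88731801-88732100, minus strand: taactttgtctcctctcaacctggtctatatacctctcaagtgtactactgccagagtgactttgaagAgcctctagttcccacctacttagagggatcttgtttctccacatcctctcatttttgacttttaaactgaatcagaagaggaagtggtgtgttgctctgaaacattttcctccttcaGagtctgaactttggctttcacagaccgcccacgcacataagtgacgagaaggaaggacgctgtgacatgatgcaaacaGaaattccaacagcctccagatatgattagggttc
The transcripts themselves were 99.1% identical, with 7 mismatches over 817 aligned bases. Of all 50-base words, 57.6% of those in Bcl2a1b and 79.5% of those in Bcl2a1d also occurred in another A1 copy. How the authors counted reads that fit several places is not given in the sources used here, so the split between the copies and their total are uncertain. In addition, 401 exon bases of Bcl2a1b (49.1% of its exons) overlap Gm29094 on the same strand, a gene with at most 5 counts in any library. The exons of Bcl2 overlap those of D630008O14Rik on the opposite strand over 558 bases, with at most 3 counts for that gene. The exons of Bak1 overlap those of Ggnbp1 over 357 bases, with at most 28 counts. The strand setting of the counting is not given in the sources used here. The low counts of Gm29094, D630008O14Rik and Ggnbp1 do not show how many reads of the members the overlaps affected.

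Per kilobase of exon, Mcl1 was the most abundant member. Its median over the 12 libraries was 107 CPM per kb, and its lowest library (77.1 CPM per kb) lay above the highest library of every other member. Bax followed with a median of 52.0 CPM per kb (36.8 to 65.8). Bak1, at 29.8 (23.4 to 41.4), overlapped Bax above it and Pmaip1, at 27.2 (16.2 to 35.6), below it. Below them Bcl2a1d (15.4), Bcl2a1b (12.1), Bcl2 (9.99), Bcl2l11 (9.25), Bbc3 (9.09) and Bcl2l1 (7.86 CPM per kb) lay within overlapping ranges of 2.71 to 28.4 CPM per kb. The place of the A1 copies in this order is uncertain, since the counting of reads shared between copies is not known. Bcl2l1 and Mcl1 varied least over all libraries, with the highest CPM 1.47 and 1.52 times the lowest. Bcl2 and Bcl2l11 varied by 3.45 and 3.39 times, and Bcl2a1d by 10.5 times, with only 6 counts in its lowest library.

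**Figure D1:**
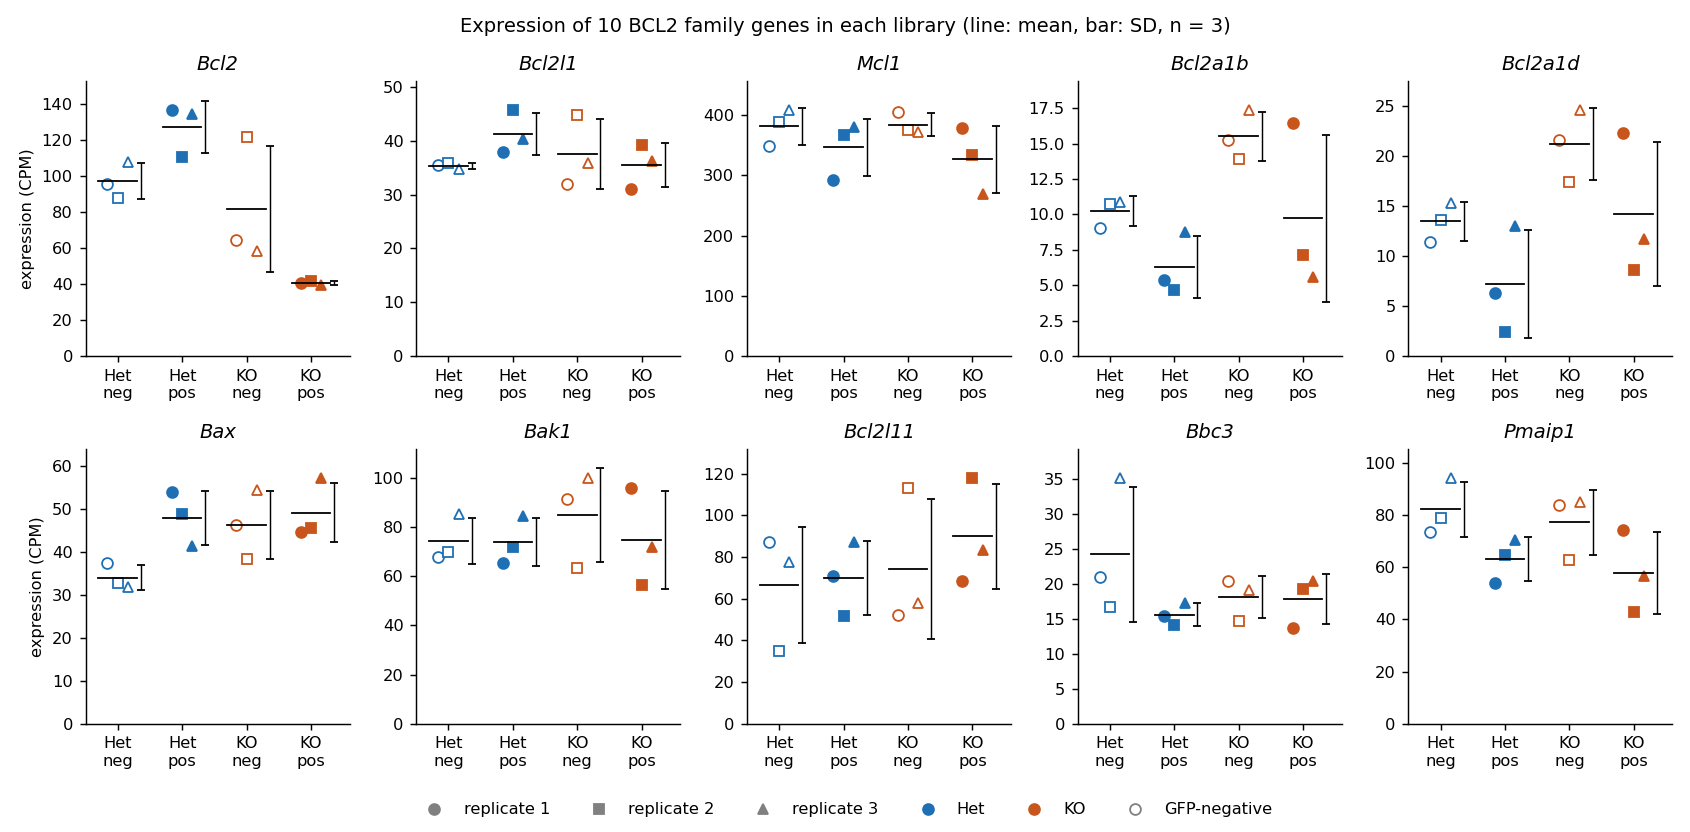
CPM of the 10 genes in each library, with the 4 groups on the horizontal axis. Open symbols are GFP-negative and filled symbols GFP-positive libraries, the symbol shape gives the replicate number, the line the mean and the bar the SD of 3 libraries. The 3 KO GFP-positive libraries of Bcl2 lie together at 39.5 to 41.4 CPM, under all other libraries.

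Bcl2 was the member that separated the genotypes among GFP-positive cells, a difference that was known before this set of genes was chosen and is therefore described rather than counted as independent support. Het GFP-positive libraries held 136, 110 and 134 CPM of Bcl2 (1021, 283 and 1380 counts), and KO GFP-positive libraries held 40.5, 41.4 and 39.5 CPM (381, 58 and 335 counts). Every Het library was above every KO library, and the mean of 127 ± 14.3 CPM (SD, n = 3) was 3.14 times the KO mean of 40.5 ± 0.967 CPM (SD, n = 3). The fitted log2 fold change was 1.66 (SE 0.25, FDR 0.0324, by the quasi-likelihood test of edgeR, adjusted by Benjamini and Hochberg over 13238 genes). Bcl2 was the 1 of 10 members called, where 0.106% of all tested genes were, and the 1 of 10 whose groups did not overlap, where 7.48% of all genes did not. An exact two-sided permutation test of 3 against 3 libraries gave p = 0.1, the smallest this design allows. The call was narrow: without any 1 of the 6 libraries the log2 fold change stayed between 1.60 and 1.72 while the FDR rose to between 0.0814 and 0.181, and with only the 2 groups in the fit it was 1.62 (FDR 0.0575). DESeq2 on all libraries gave 1.64 with an adjusted p of 1.81e-06, and called 0.604% of all genes. The authors' deposited table lists Bcl2 among 77 genes with a log2 fold change of -1.49 (SE 0.203, adjusted p 8.65e-10), and all 77 genes in it are signed as KO minus Het. The summed myeloid markers of the Het (754 to 5495 CPM) and KO GFP-positive libraries (432 to 2113 CPM) overlapped. So did the summed erythroid markers (36.1 to 155 CPM in Het and 86.5 to 296 CPM in KO). The part of these cells in the Bcl2 difference was not tested.

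In GFP-negative cells Bcl2 stood at 95.2, 87.8 and 108 CPM in Het and at 64.3, 122 and 58.2 CPM in KO libraries. The groups overlapped because KO replicate 2 was above all Het libraries. The fitted log2 fold change of Het over KO GFP-negative cells was 0.25 (SE 0.24, FDR 1.00). The order of the Bcl2 means was therefore Het GFP-positive (127 CPM), Het GFP-negative (96.9 ± 10.1, SD, n = 3), KO GFP-negative (81.4 ± 35.0, SD, n = 3) and KO GFP-positive (40.5 CPM), in which only the middle neighbours overlapped.

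Within recipients the Bcl2 difference between the sorts had opposite signs in the 2 genotypes. This pattern includes the known difference between the GFP-positive groups. Mean log2 CPM of Het minus KO was 1.64 in GFP-positive and 0.33 in GFP-negative libraries. The pattern is therefore described and not counted as independent support. GFP-positive minus GFP-negative log2 CPM was 0.52, 0.33 and 0.32 in the 3 Het recipients. In the KO recipients it was -0.67, -1.55 and -0.56. Over all tested genes, 1.21% had all Het recipients on one side and all KO recipients on the other, and Bcl2 was the 1 of 10 members among them. The mean differences of 0.39 and -0.92 lay 1.31 apart, with an exact permutation p of 0.1 over the 6 recipients. This is the smallest p possible, and Bcl2l1 and Bax reached it too. The share of all genes that reach it was not determined, so reaching it does not set these members apart. The interaction of GFP and genotype was 1.40 (SE 0.34, FDR 1.00 by edgeR), and with the recipient as a block 1.27 (SE 0.25, FDR 0.129), so it was not called. Among the alternatives run it passed only where the block was joined with a GC and length offset (1.30, FDR 0.0405), and without KO GFP-negative replicate 2 it was 1.00 (FDR 0.614). No member was called for the interaction by edgeR, where 0.00755% of genes were called without and 0.0755% with the block. In that test 1 member, Bcl2, had an unadjusted p under 0.05 in either fit, and DESeq2 called 0 (0.093% of all genes).

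Within each genotype, the fall of Bcl2 in KO recipients was called in the paired fit. The log2 fold change of KO GFP-positive over KO GFP-negative cells was -1.01 (SE 0.25, FDR 0.167) without the block and -0.88 (SE 0.18, FDR 0.0106) with the recipient as a block. The size rested in part on KO GFP-negative replicate 2: leaving it out of the unblocked fit gave -0.60 (FDR 0.162), and the blocked fit without recipients Het 2 and KO 2 gave -0.61 (FDR 0.0832). The unblocked fit called it without KO GFP-positive replicate 1 (FDR 0.0433), with no filter on low counts (FDR 0.0267) and by DESeq2 (FDR 0.0170). In Het recipients the log2 fold change was 0.39 in both fits (SE 0.24, FDR 0.325 without and SE 0.17, FDR 0.117 with the block). The Het libraries did not overlap in Bcl2, with 110 to 136 CPM in GFP-positive and 87.8 to 108 CPM in GFP-negative cells.

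**Figure D2:**
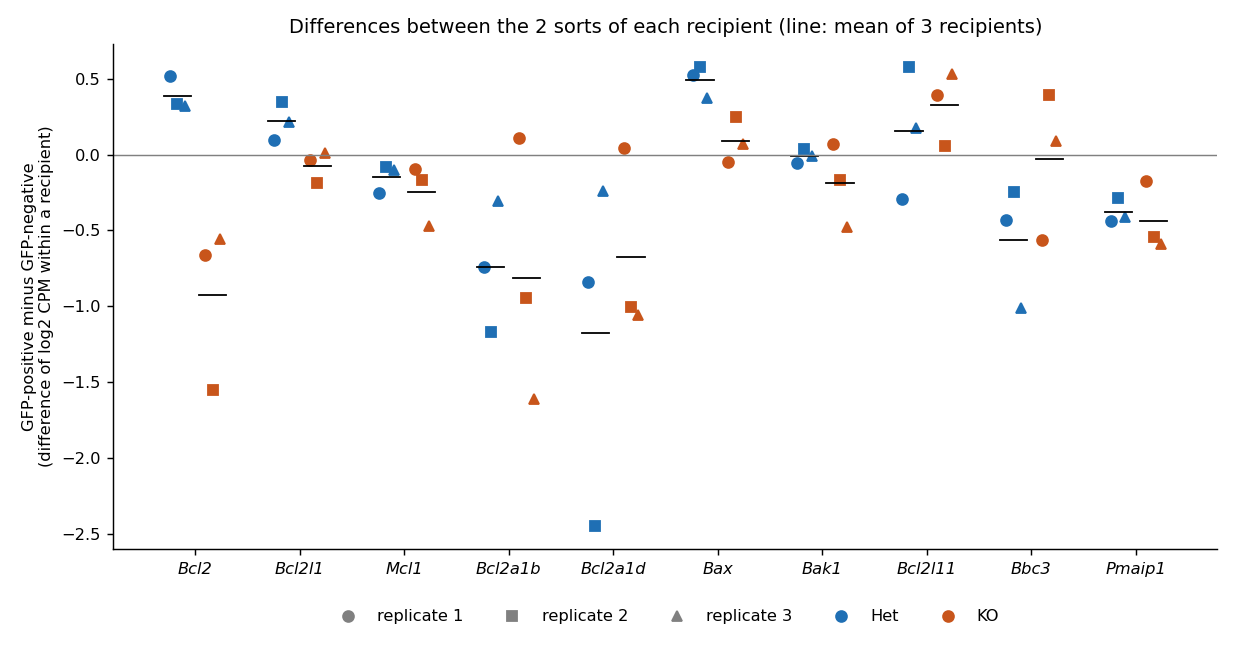
Difference of log2 CPM, GFP-positive minus GFP-negative, within each of the 6 recipients for the 10 genes. Symbols give the replicate number, blue is Het, orange is KO, and the line is the mean of 3 recipients. Bcl2 lies above 0 in the 3 Het recipients (0.32 to 0.52) and below 0 in the 3 KO recipients (-0.56 to -1.55), while Mcl1 and Pmaip1 lie below 0 in all 6.

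Among the other survival genes Bcl2l1, which encodes BCL-XL, stood at 38.0, 45.7 and 40.3 CPM in Het GFP-positive and at 31.1, 39.3 and 36.2 CPM in KO GFP-positive libraries. These ranges overlapped at a log2 fold change of 0.23 (SE 0.17, FDR 0.953). Within recipients it was higher in GFP-positive cells by 0.10, 0.35 and 0.21 in Het and differed by -0.04, -0.19 and 0.01 in KO recipients. The genotype means of 0.22 and -0.07 lay 0.29 apart, with the same exact permutation p of 0.1 as for Bcl2, and a difference between the patterns of Bcl2l1 and Bcl2 was not tested. Its Het groups did not overlap, since the GFP-negative libraries were as tight as 34.7 to 35.8 CPM, and neither fit called the difference (0.22, SE 0.16, FDR 0.422 without the block).

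Mcl1, whose short-lived product T cells need throughout life, was lower in the GFP-positive library of 6 of 6 recipients. The differences of log2 CPM ran from -0.08 to -0.47 with a mean of -0.20 ± 0.15 (SD, n = 6), and an exact sign-flip permutation test gave p = 0.03125, the smallest that 6 recipients allow. Over all tested genes 37.6% lay on one side in all 6 recipients, so the 2 of 10 members that did (Mcl1 and Pmaip1) were no more than the background share. The Mcl1 groups overlapped in every comparison, with means between 327 and 385 CPM, and the mean GFP effect over both genotypes was -0.19 (SE 0.12, FDR 0.279), or -0.20 (FDR 0.131) with the block.

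The A1 copies, which rested on 10 to 349 (Bcl2a1b) and 6 to 494 counts (Bcl2a1d) per library, were lower in GFP-positive cells of 5 of 6 recipients. Bcl2a1b held 9.04, 10.8 and 10.9 CPM in Het GFP-negative and 5.33, 4.68 and 8.76 CPM in Het GFP-positive libraries, which did not overlap. In KO it held 15.2, 13.9 and 17.3 CPM in GFP-negative and 16.5, 7.14 and 5.54 CPM in GFP-positive libraries. KO GFP-positive replicate 1 was the exception for both copies, and it held 22.3 CPM of Bcl2a1d against 8.57 and 11.7 CPM in the other 2 KO GFP-positive libraries. The mean GFP effect was -0.64 (SE 0.26, FDR 0.0945) for Bcl2a1b and -0.65 (SE 0.31, FDR 0.143) for Bcl2a1d. With the recipient as a block both fell, with log2 fold changes of -0.72 (FDR 0.0250) and -0.75 (FDR 0.0248). Without recipient KO 1 the blocked values were -1.04 and -0.96, and joining the block with the GC and length offset ended both calls (-0.28, FDR 0.229, and -0.32, FDR 0.201). So did leaving out recipients Het 2 and KO 2 (FDR 0.106 and 0.0978). Between the GFP-negative groups neither copy overlapped, with Bcl2a1b at 10.2 ± 1.03 CPM in Het and 15.5 ± 1.72 CPM in KO (SD, n = 3 each), but no test called this (log2 fold change -0.60, SE 0.35, FDR 0.970). A1 genes are also expressed in myeloid cells, whose summed markers were higher in the GFP-positive library of 6 of 6 recipients, and the part of those cells in the A1 values was not tested.

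Of the effector genes, Bax rose with GFP in Het cells in the paired fit. It held 37.4, 32.7 and 32.0 CPM in Het GFP-negative and 53.9, 48.8 and 41.4 CPM in Het GFP-positive libraries, and these did not overlap. The log2 fold change was 0.50 (SE 0.17, FDR 0.131) without and 0.49 (SE 0.13, FDR 0.0244) with the recipient as a block. In KO cells Bax held 46.2, 38.5 and 54.4 CPM in GFP-negative and 44.7, 45.7 and 57.1 CPM in GFP-positive libraries, and the log2 fold change of 0.09 had an SE of 0.17 (FDR 0.790). The test of the difference between the genotypes gave 0.40 (SE 0.25, FDR 1.00), so the 2 effects were not shown to differ. Within recipients the genotype means lay 0.40 apart (exact permutation p = 0.1). All 3 Het GFP-negative libraries were below all 3 KO GFP-negative ones, where the log2 fold change of -0.45 had an SE of 0.17 (FDR 0.935). The blocked mean GFP effect of Bax was 0.28 (SE 0.0950, FDR 0.0328). Without recipients Het 2 and KO 2 neither blocked call remained (FDR 0.193 in Het and 0.244 for the mean effect).

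Bak1, the partner of Bax, held 65.2 to 84.5 CPM in Het GFP-positive, 67.7 to 85.1 CPM in Het GFP-negative, 56.4 to 95.7 CPM in KO GFP-positive and 63.2 to 99.8 CPM in KO GFP-negative libraries. The groups overlapped in every comparison. Its fitted differences lay between -0.19 and -0.01 in the 4 comparisons of groups, each under its SE of 0.22.

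Among the BH3-only genes Bcl2l11, the opponent of BCL2 in resting T cells, stood apart in recipient 2 of each genotype, in both sorts. KO recipient 2 was the highest, with 113 CPM in its GFP-negative and 118 CPM in its GFP-positive library, and KO recipients 1 and 3 held 52.0 to 83.7 CPM. Het recipient 2 was the lowest of its genotype in both sorts (34.7 and 51.9 CPM, against 71.1 to 87.4 CPM in Het recipients 1 and 3). The log2 fold change of Het over KO GFP-positive cells was -0.33 (SE 0.38, FDR 1.00), and that of GFP was 0.09 (SE 0.37) in Het and 0.25 (SE 0.37) in KO. With the recipient as a block the SE fell to 0.17, and the 2 GFP values were 0.13 (FDR 0.599) and 0.34 (FDR 0.177).

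Bbc3, a p53 and FOXO target that encodes PUMA, was lower in the GFP-positive library of the 3 Het recipients, by 0.43, 0.24 and 1.01 on the log2 scale. It held 20.9, 16.7 and 35.1 CPM in Het GFP-negative and 15.5, 14.1 and 17.3 CPM in Het GFP-positive libraries, which overlapped. In KO recipients the differences were -0.57, 0.39 and 0.09. The Het log2 fold change was -0.63 (SE 0.27, FDR 0.200) without and -0.60 (FDR 0.0663) with the block. It was called once the block was joined with the GC and length offset (-0.91, FDR 0.00187), where the mean GFP effect was called too (-0.57, FDR 0.00204). The blocked fit without recipient KO 1 called it as well (FDR 0.0329). Bbc3 had the highest GC fraction of the 10 genes, 0.652 in its longest transcript.

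Pmaip1, which encodes NOXA, the BH3-only protein that targets MCL1, was lower in the GFP-positive library of 6 of 6 recipients, by 0.17 to 0.59 on the log2 scale (exact sign-flip permutation p = 0.03125). It held 73.5, 79.0 and 94.1 CPM in Het GFP-negative and 54.1, 64.8 and 70.6 CPM in Het GFP-positive libraries, with no overlap. In KO it held 83.9, 62.6 and 85.1 CPM in GFP-negative and 74.3, 42.8 and 56.6 CPM in GFP-positive libraries. The mean GFP effect was -0.39 (SE 0.15, FDR 0.0797) without and -0.41 (SE 0.09, FDR 0.00628) with the recipient as a block. Pmaip1 had the lowest GC fraction of the 10 genes, 0.421, and with the GC and length offset joined to the block the effect was -0.13 (FDR 0.213). Without recipients Het 2 and KO 2 the blocked effect was -0.40 (FDR 0.0529). The interaction was 0.01 (SE 0.29, FDR 1.00).

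**Figure D3:**
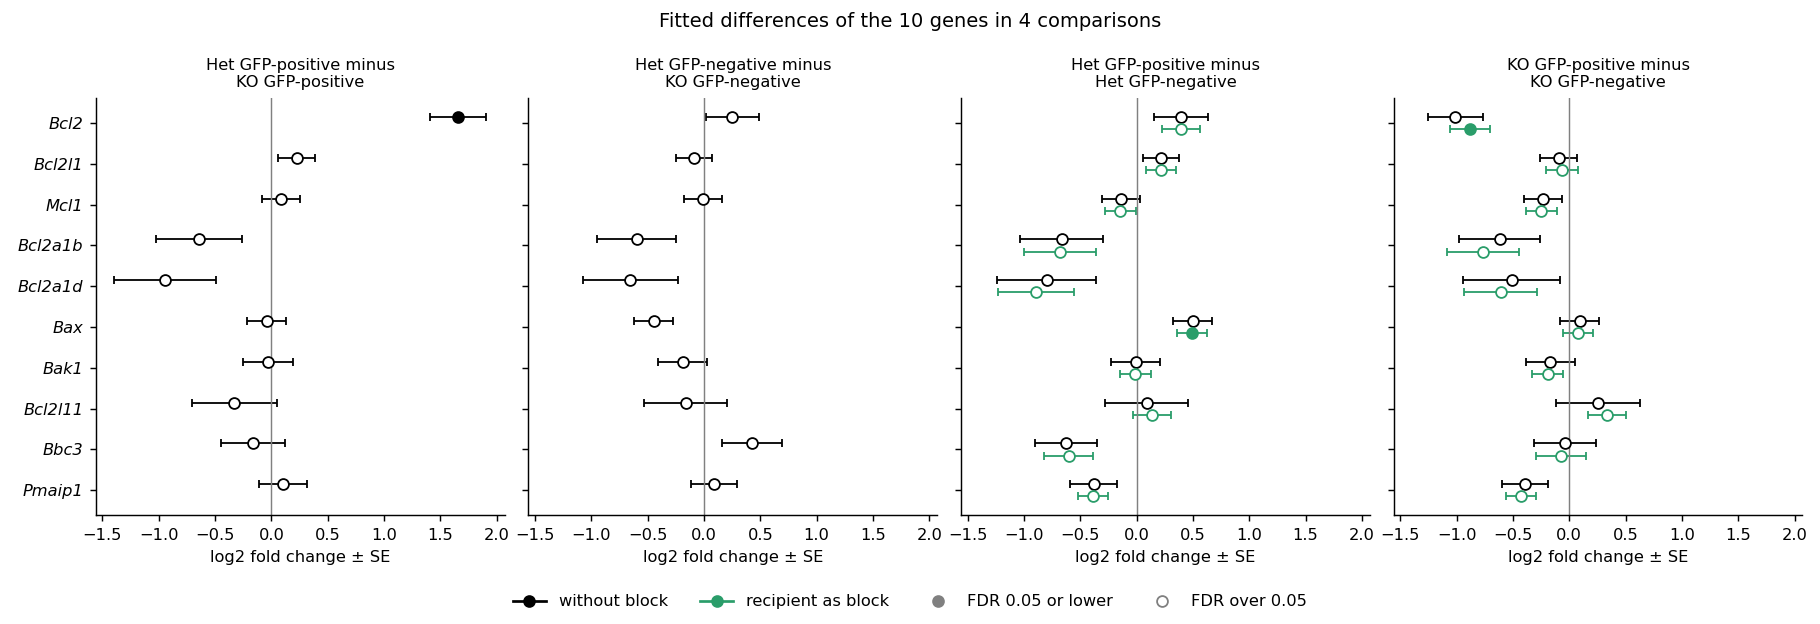
Fitted log2 fold changes with their SE for the 10 genes in the 4 comparisons of groups, in black without and in green with the recipient as a block, which exists only for the 2 comparisons within a genotype. Filled symbols have an FDR of 0.05 or lower: Bcl2 between the GFP-positive groups (1.66), Bax in Het (0.49) and Bcl2 in KO cells (-0.88) with the block.

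Counted by comparison, few members were called. Percentages of genes called refer to the FDR threshold. The share of all genes at an unadjusted p under 0.05 was not determined. Counts at that cutoff, above, here and for the gene lists below, therefore have no background beside them. Of Het GFP-positive over Het GFP-negative cells edgeR called 0 of 10 members, where 3.45% of all genes were called, and 1 of 10 (Bax) with the block, where 22.2% were. At an unadjusted p under 0.05 there were 2 and 5, and DESeq2 called 0, where it called 8.82% of all genes. In this comparison 5 of 10 members did not overlap (Bcl2, Bcl2l1 and Bax higher, Bcl2a1b and Pmaip1 lower in GFP-positive cells), where 27.3% of all genes did not. The median log2 fold change of the members was -0.07, against -0.02 over all tested genes. In KO cells edgeR called 0 of 10 without the block (0.128% of all genes) and 1 of 10, Bcl2, with it (17.7%). At an unadjusted p under 0.05 there were 1 and 3, and DESeq2 called 1, where it called 2.72% of all genes. The KO sorts did not overlap in 1 of 10 members, where 20.3% of all genes did not, and the median was -0.20 against -0.02. Between the GFP-negative groups edgeR and DESeq2 called 0 of 10, where edgeR called 0% and DESeq2 0.254% of all genes, and 1 member (Bax) had an unadjusted p under 0.05. There 3 of 10 did not overlap (Bcl2a1b, Bcl2a1d and Bax, all lower in Het), where 11.3% of all genes did not. For the mean GFP effect over both genotypes edgeR called 0 of 10 without the block (18.1% of all genes), with 3 at an unadjusted p under 0.05 and 0 called by DESeq2 (21.4% of all genes). With the block it called 4 of 10, Bax higher and Pmaip1, Bcl2a1b and Bcl2a1d lower, where 41.1% of all genes were called, so the members' share was near the background. The 2 comparisons of GFP-positive with GFP-negative cells share no library, but each shares libraries with the comparisons between genotypes.

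Ratios within a library do not depend on the scaling between libraries. Per kilobase, the ratio of Bcl2 to Bcl2l11 was 1.68, 1.87 and 1.35 in Het GFP-positive and 0.520, 0.308 and 0.414 in KO GFP-positive libraries. In GFP-negative cells it was 0.959, 2.22 and 1.22 in Het and 1.08, 0.942 and 0.883 in KO libraries. The KO GFP-positive libraries were thus the 3 lowest of the 12. From GFP-negative to GFP-positive cells the log2 ratio differed by -1.06, -1.61 and -1.09 in KO and by 0.81, -0.25 and 0.15 in Het recipients. In KO recipient 2, where Bcl2 (122 CPM) and Bcl2l11 (113 CPM) were both high in GFP-negative cells, the GFP-negative ratio of 0.942 lay between those of the other 2 recipients.

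The ratio of Bcl2 to Bax was 0.215 to 0.308 in Het GFP-positive and 0.0655 to 0.0860 in KO GFP-positive libraries, again without overlap. From GFP-negative to GFP-positive cells its log2 value differed by -0.01, -0.25 and -0.05 in Het, where both genes were higher, and by -0.62, -1.80 and -0.63 in KO recipients. Bcl2 to Bcl2l1 was 1.21 to 1.79 in Het GFP-positive and 0.528 to 0.651 in KO GFP-positive libraries. The ratio of Mcl1 to Bcl2l11 overlapped between all groups, with 9.49 to 16.3 in Het GFP-positive and 6.52 to 12.8 in KO GFP-positive libraries. These ratios carry the Bcl2 difference already described, and no test was made on them.

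**Figure D4:**
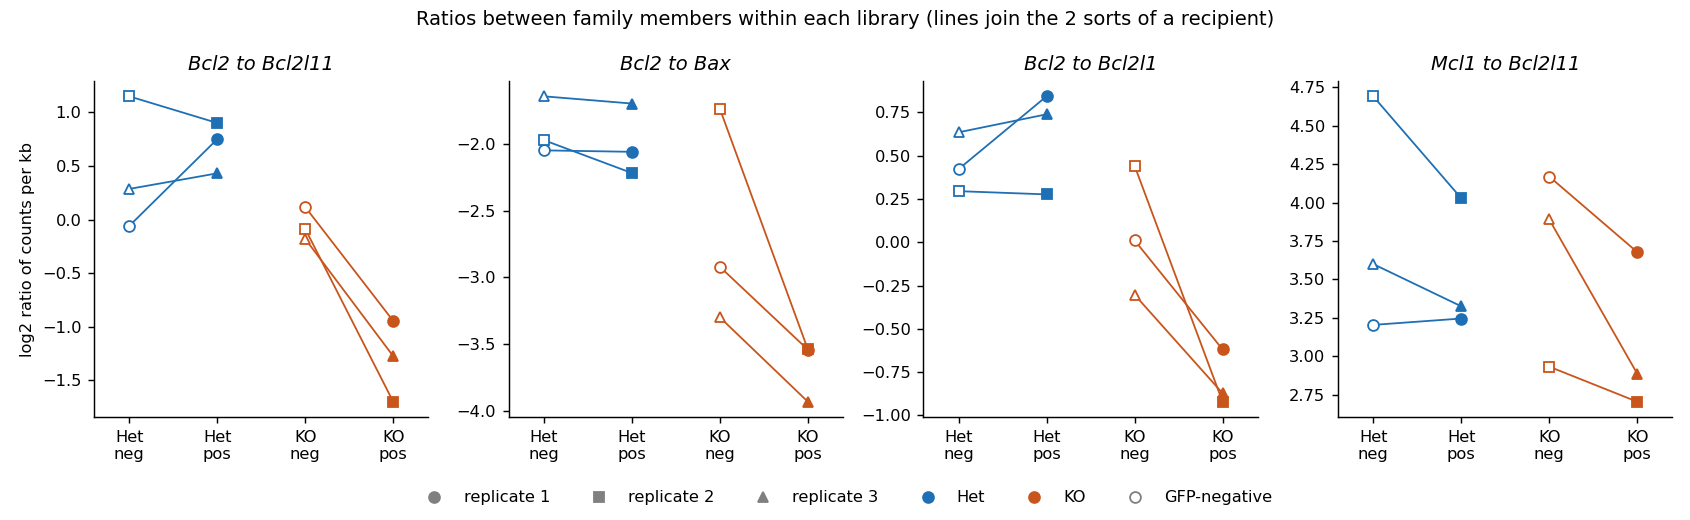
Log2 ratio of counts per kilobase for 4 pairs of genes in each library, with lines joining the GFP-negative and GFP-positive library of a recipient. All 4 ratios are lower in the GFP-positive library of the 3 KO recipients. The ratios with Bcl2 lie there below all Het GFP-positive libraries, while Mcl1 to Bcl2l11 overlaps between the genotypes.

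Other genes of the family were read from a list of 15, of which 11 passed the filter. Bid, the BH3-only protein that caspase-8 cleaves to link death receptors to mitochondria, rose in Het GFP-positive cells. It held 8.14, 5.58 and 10.2 CPM in Het GFP-negative and 24.7, 23.4 and 23.3 CPM in Het GFP-positive libraries, against 11.1, 8.94 and 9.83 CPM in KO GFP-negative and 12.5, 8.57 and 15.6 CPM in KO GFP-positive libraries. The Het log2 fold change was 1.57 (SE 0.25, FDR 0.00798 by edgeR), and Bid was the 1 of 11 called there, where 3.45% of all genes were. The mean GFP effect of Bid over both genotypes was called too (0.96, SE 0.18, FDR 0.00764). For the interaction 0 of 11 were called, so the Bid effects of the 2 genotypes were not shown to differ. Bik, an endoplasmic reticulum BH3-only gene, was lower in the GFP-positive library of 6 of 6 recipients, and its mean GFP effect was -1.28 (SE 0.30, FDR 0.0187). With the recipient as a block 3 of 11 were called in Het (Bid higher, Bik and Bnip3l lower) and 2 of 11 in KO cells, near the 22.2% and 17.7% of all genes called in these fits. The latter were Bmf, higher at a log2 fold change of 2.00 (FDR 0.0368) from a mean of only 0.455 CPM, and Bnip3l, a mitophagy receptor, lower at -0.77 (FDR 0.0202). The erythroid lineage also expresses Bnip3l, the summed erythroid markers were higher in the GFP-positive library of 6 of 6 recipients, and the part of those cells in the Bnip3l values was not tested. Between genotypes edgeR called 0 of 11 in either sort, with 1 gene each at an unadjusted p under 0.05.

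Of 23 genes of the downstream machinery and death receptors, edgeR called 0 within either genotype without the block, with 5 in Het and 2 in KO at an unadjusted p under 0.05. For the mean GFP effect it called 0 higher and 2 lower: Cflar, which encodes the caspase-8 inhibitor cFLIP (-0.52, SE 0.12, FDR 0.0194), and Cycs, which encodes cytochrome c (-0.67, SE 0.21, FDR 0.0487). Cflar stood at 218 ± 42.3 CPM in Het GFP-negative cells, against 144 ± 13.2 CPM in their GFP-positive counterparts (SD, n = 3 each). With the block 3 rose in Het cells, among them the death receptor gene Fas (0.80, FDR 0.00713) and the mitochondrial protease gene Htra2 (0.69, FDR 0.0358), and 2 fell, Cycs and Cflar, which makes 5 of 23 where 22.2% of all genes were called. In KO cells the block called 0 higher and 2 lower, Bcap31 (-0.88, FDR 0.0362) and Vdac3 (-0.79, FDR 0.0432), where 17.7% of all genes were called. The blocked mean effect called 4 higher and 5 lower of 23, close to the 41.1% of all genes.

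Of 23 genes that regulate the family, chiefly receptors and signalling of the common gamma chain cytokines, 1 rose and 4 fell in Het GFP-positive over Het GFP-negative cells, where 3.45% of all genes were called. Il7r, the interleukin-7 receptor that maintains Bcl2 in T cells, held 445, 535 and 531 CPM in Het GFP-negative and 164, 123 and 114 CPM in Het GFP-positive libraries. It was also the 1 gene of the list called in KO cells without the block, with 354, 310 and 199 CPM in GFP-negative and 109, 44.3 and 52.1 CPM in GFP-positive libraries. The log2 fold changes were -1.91 (SE 0.32, FDR 0.00974) in Het and -2.05 (SE 0.33, FDR 0.0384) in KO. The others that fell in Het were Il2ra, the interleukin-2 receptor alpha chain (-1.78, FDR 0.00647), Id2 (-1.77, FDR 0.0142) and Il2rg, the common gamma chain (-1.10, FDR 0.0450). Il4ra, the interleukin-4 receptor alpha chain, rose (0.99, FDR 0.0102). With the recipient as a block, where 17.7% of all genes were called in KO cells, these genes were called in KO cells too. There Il2ra (-1.08, FDR 0.0129), Id2 (-1.33, FDR 0.00399) and Il2rg (-0.97, FDR 0.00746) fell, and Il4ra rose (0.57, FDR 0.0184).

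For the mean GFP effect 4 of 23 regulators rose and 4 fell, where 18.1% of all genes were called. Those that rose were Myb, a known activator of Bcl2 in lymphoid cells (1.43, SE 0.30, FDR 0.0124), Cdkn1a (0.87, FDR 0.0495), Jak3 (0.85, FDR 0.0370) and Il4ra (0.78, FDR 0.00340). Myb rose in both genotypes, from means of 13.6 to 42.3 CPM in Het and 19.2 to 46.1 CPM in KO, and with the block in each alone (1.63, FDR 0.000160, and 1.20, FDR 0.00157). With the block 6 rose and 6 fell in Het cells, where 22.2% of all genes were called, and 3 rose and 4 fell in KO cells, where 17.7% were. Between the GFP-positive groups 0 of 23 regulators, 0 of 23 machinery genes and 0 of 11 other family genes were called by edgeR, with 2, 1 and 1 at an unadjusted p under 0.05. The median log2 fold changes of the 3 lists were 0.12, 0.06 and -0.09 against 0.01 over all tested genes.

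**Figure D5:**
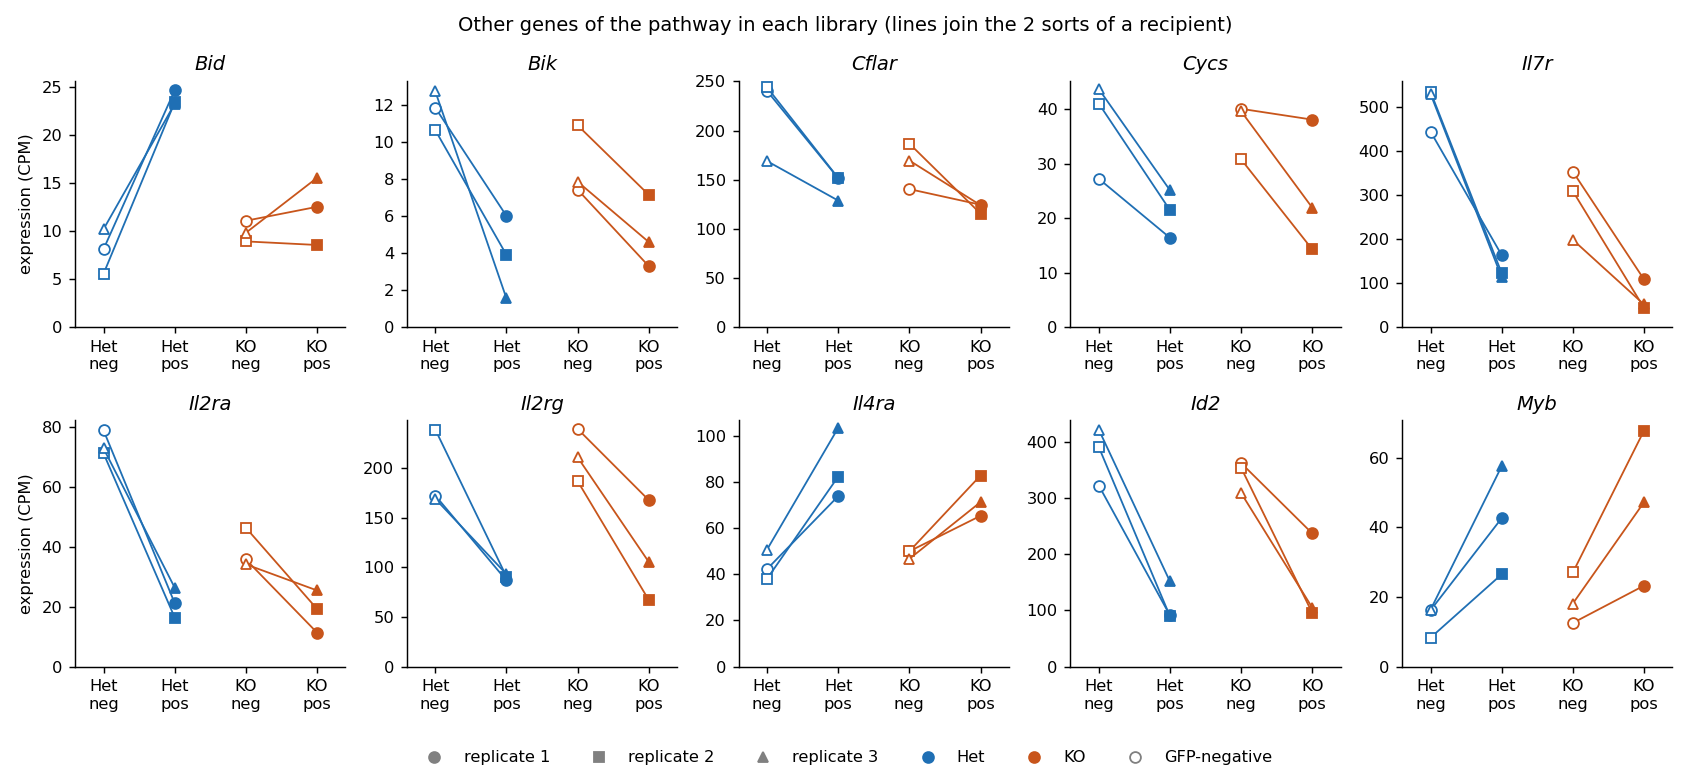
CPM of 10 genes of the pathway in each library, with lines joining the GFP-negative (open) and GFP-positive (filled) library of a recipient, blue for Het and orange for KO. Il7r, Il2ra, Il2rg and Id2 fall in all 6 recipients, and Bid rises in the 3 Het recipients from 5.58 to 10.2 CPM to 23.3 to 24.7 CPM.

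The genes whose levels were most like Bcl2 over the 12 libraries were sought by Pearson correlation of log2 CPM among the 9820 tested genes that averaged 5 CPM or more. They were Nmrk1 (r = 0.907), 5830411N06Rik (r = 0.905), Socs3 (r = 0.877), Bspry (r = 0.873) and Ildr1 (r = 0.872). These correlations describe 12 libraries that share recipients in pairs and differ in depth. The group means of these genes follow from that choice and are a description only. Socs3, a cytokine signalling inhibitor, averaged 47.7 and 82.4 CPM in Het GFP-negative and GFP-positive cells and 32.7 and 19.9 CPM in KO GFP-negative and GFP-positive cells. Ildr1 averaged 28.6 ± 5.91 CPM in the Het and 4.26 ± 1.71 CPM in the KO GFP-positive group (SD, n = 3 each).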

How the data were processed

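RNA of 12 libraries was prepared from sorted cells with a stranded, ribosome-depleted total RNA kit, per the labels. The submitters' processing notes name bcl2fastq 1.8.4, TopHat2 2.0.13, featureCounts 1.5.0-p1, DESeq2 1.6.1 and the build mm10. The authors deposited whole-number counts per gene, unnormalized and unpooled, and matrix and library files agreed in every cell. The authors also deposited DESeq2 tables with log2 fold changes with standard errors, a test statistic (a score) and p-values. They list 1406 (Het sorts), 388 (KO sorts) and 77 (GFP-positive groups) genes, and Bcl2 in the last is the only member listed.

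Counts were filtered (filterByExpr, minimum count 10, 13238 genes left), scaled by TMM and fitted over all 12 libraries with edgeR 4.0.16 (R 4.3.3) quasi-likelihood tests, two-sided, called at FDR 0.05 over all tested genes. SE is the log2 fold change over the square root of F. Log2 CPM of single libraries used a prior count of 2. The procedure was tested on simulated data without differences between recipients, so the blocked fits were not checked on paired data. Libraries were grouped by genotype and GFP label. Recipient pairs come from the design text, and deviations of paired libraries correlated with r = 0.547, 0.241 and 0.617 (Het) and 0.507, 0.506 and 0.263 (KO). Blocked values are given where they change a call. Replicates differed beyond sampling noise.

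Symbols and coordinates came from GENCODE M21 and the deposited files, 42411 of 42462 shared identifiers lying on the same place. Members and lists were chosen with earlier results of these data known. Named were Eomes, the 10 members, up to 4 called genes per list, direction and comparison by size, and the 5 genes most like Bcl2. Sign-flip p-values were not adjusted over the members. Alternatives were another normalization, no filter, limma-voom 3.58.1, DESeq2 1.42.0, GC and length offsets, blocks, fewer groups and libraries left out. Fits without recipient KO 1, whose GFP-positive library differed from the other 2 in both A1 copies, and without Het 2 and KO 2, the shallowest, were added after seeing the data. Values of some listed genes are not reported here.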

Additional observations from a re-analysis of the deposited data

Results flagged for a closer look

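The difference of Bcl2 between GFP-positive and GFP-negative cells ran in opposite directions in the 2 genotypes. It was 0.52, 0.33 and 0.32 (log2 CPM) in the Het recipients and -0.67, -1.55 and -0.56 in the KO recipients, so that the genotype means lay 1.31 apart. This gap includes the Bcl2 difference between the GFP-positive groups, which was known before the genes were chosen. It is therefore not independent support. An exact permutation test over the 6 recipients gave p = 0.1, the smallest it can give, which Bcl2l1 and Bax also reached (genotype means 0.29 and 0.40 apart). The share of all genes that reach this p was not determined. The edgeR interaction test had an FDR of 1.00, or 0.129 with the recipient as a block. The myeloid marker sum was higher in the GFP-positive library of all 6 recipients, and its part in the difference was not tested.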

How the results depend on the processing

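Over 1000 values of single members in alternative fits, 895 kept their side of the threshold and direction, 33 became called, 7 lost a call and 65 uncalled values changed sign. None that was called changed direction. The 7 lost calls were those of Bcl2 between the GFP-positive groups: with only these groups fitted it was 1.62 (FDR 0.0575), leaving 0 members called, and without 1 library it ran from 1.60 to 1.72 with 0 members called. Shares of all genes called in the same fit stand in brackets. In Het cells 0 members [3.45%] became 1 with the recipient as a block [22.2%], 2 with block and GC and length offset (Bax, Bbc3) [21.6%] and 4 with the block without recipient KO 1 [29.5%]. In KO cells 0 [0.128%] became 1 (Bcl2) with the block [17.7%], with block and offset [17.5%], with no filter [0.849%] and by DESeq2 [2.72%], and 4 with the block without recipient KO 1 [29.0%]. Without 1 library it was 0 to 2, with 2 without KO GFP-positive replicate 1 [12.6%]. For the interaction 0 became 1 (Bcl2, 1.30) with block and offset [0.189%]. For the mean GFP effect 0 [18.1%] became 4 with the block [41.1%], 3 with block and offset [38.7%] and 4 with the block without recipient KO 1 [45.8%], no more than the background in these 3 fits. Without 1 library it was 0 to 3, with 3 when KO GFP-positive replicate 1 was left out [33.3%] and 1 when Het GFP-positive replicate 3 was [19.2%]. The cause of these shifts was not tested. Without recipients Het 2 and KO 2 the blocked fit called 0 members. Replicate numbers do not pair across genotypes (r from -0.276 to 0.166), and that block left Bcl2 at 1.66 (FDR 0.0470). Sign-flip results with prior counts of 0.5 and 5 kept their direction. The 58 Bcl2 counts in the shallowest library and 6 to 12 A1 counts in single libraries limit precision.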
